A study of Homo sapiens with 6 samples.

Results

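NF-kB is a family of dimeric transcription factors that is held in the cytoplasm by inhibitor proteins and is released when a receptor such as that of tumour necrosis factor (TNF) activates the IkB kinase complex. In the canonical branch, dimers of RELA and the p50 product of NFKB1 are freed from IkB-alpha. In the non-canonical branch, RELB pairs with the p52 product of NFKB2. Several genes under NF-kB control encode its own subunits and inhibitors, so that signalling feeds back on itself, and in epithelial tumours the pathway is known for driving adhesion molecules, cytokines and survival genes.

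The transcripts described here are the 4 subunits RELA, RELB, NFKB1 and NFKB2, the inhibitors NFKBIA, TNFAIP3 and TNIP1, and the TNF-responsive genes TNFAIP2, ICAM1 and BIRC3. They were taken by gene symbol, and all 10 were found among the 15761 genes of the table. RNA sequencing was performed on SK-MES-1, an established human line of lung squamous carcinoma labelled as wild type. Control cultures (n = 3) received no exosomes. Treated cultures (n = 3) were kept for 72 h in complete medium with 20 µg/ml of exosomes, small secreted vesicles, from lung fibroblasts of idiopathic pulmonary fibrosis, a scarring lung disease. Whether the 3 cultures of a group were grown independently is not in the labels. The p-values thus describe the spread among these samples, which may be technical. No group received vesicles of another source.

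Total counts were 11346639 to 13334508 per library. Of 12449 genes tested, 51.7% were called at an adjusted p under 0.05 by edgeR's quasi-likelihood test, 25.6% higher and 26.1% lower with exosomes, and in 35% every exosome library lay above every control library (24.5% below). Higher genes made up 49.6% of these calls, or 60.4% when libraries were scaled by their totals alone. Fold changes followed base composition: the median log2 fold change was -0.39 in the lowest of 10 equal bins of transcript GC content and 0.49 in the highest. For the log2 fold changes of single genes, a corrected value is therefore also given, from a fit in which each library's trend on transcript GC content and length was removed. Corrected, 18.2% of genes were higher and 17.3% lower. Of 9 epithelial markers tested, 0 were higher and 5 lower with exosomes (0 and 7 under the correction). Their summed level was 4839 to 5026 CPM (a gene's reads scaled to the library total) in control and 3947 to 4321 CPM with exosomes. Among them keratin 8 (KRT8) had 2340 CPM and keratin 18 (KRT18) 997 CPM in control, while the squamous keratins KRT5, KRT6A and KRT14 had 0 to 6 reads per library. Of 2 fibroblast markers tested, 0 were higher and 1 lower with exosomes (0 and 2 under the correction). Summed fibroblast markers were at 10.9 to 11.8 CPM in control and 7.98 to 9.15 CPM with exosomes. Most of that sum was PDGFRB (7.65 CPM on average in control, 6.72 CPM with exosomes), followed by COL6A3 (3.31 and 1.42 CPM). PDGFRA had 0 reads in 5 of 6 libraries. Of 4 leukocyte markers tested, 3 were higher and 1 lower (1 and 1 under the correction). The rises were led by CD14 at 23.0 and 69.9 CPM. Summed leukocyte markers were at 173 to 203 CPM in control and 261 to 281 CPM with exosomes. PTPRC, the pan-leukocyte marker, had 0 to 4 reads per library. Of 3 endothelial markers tested, 0 were called in edgeR's test (0 also under the correction), with a summed level of 10.6 to 12.5 and 11.7 to 13.3 CPM. The part of these markers in the results below was not tested.

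NF-kB dimers bind a short element called the kB site. Its usual consensus and the shorter core GGAANNTCC were searched on both strands of RefSeq promoter windows (GRCh38.p14, 250 bases before to 50 bases after a start site), and the core can lie inside a consensus match. Windows were matched for 9 of the 10 genes, RELB being the other. The consensus was found for 6 of these 9 genes (NFKB1, NFKB2, NFKBIA, TNFAIP3, TNIP1 and BIRC3) and the core for 6 (ICAM1 in place of BIRC3). Of all 35116 windows, 11.3% held the consensus and 4.56% the core. Of the 9828 tested genes with at least 1 window, 17.3% held the consensus in 1 or more of them and 6.26% the core. No match of either kind was found for RELA and TNFAIP2, which says only that these letters are not in their windows.

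NFKBIA is shown in full for the 250 bases before its start site, at chr14:35404750-35404999 on the minus strand, because it is the textbook example of an inhibitor under NF-kB control. Capitals mark the matches: the first is the core alone, 242 bases before the start, and the second holds both patterns, 81 bases before it.
NFKBIA: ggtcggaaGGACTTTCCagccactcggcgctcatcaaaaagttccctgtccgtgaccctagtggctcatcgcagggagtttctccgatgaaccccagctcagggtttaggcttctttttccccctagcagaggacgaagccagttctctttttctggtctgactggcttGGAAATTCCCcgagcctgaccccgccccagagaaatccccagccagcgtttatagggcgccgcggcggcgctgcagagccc

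For the genes whose behaviour is compared below, 30 bases around a match are given, with the match in capitals. TNFAIP3 had a pair of consensus matches, of which the one nearer the start is shown (55 bases before it, chr6:137867194-137867223, plus strand). The ICAM1 core lay 186 bases before the start (chr19:10270924-10270953, plus strand), and the NFKB1 consensus 49 bases before it (chr4:102501300-102501329, plus strand). Of the 3 windows of NFKB2, the one shown held a consensus match 107 bases before its start (chr10:102394462-102394491, plus strand), and the window of BIRC3, the gene whose level did not pass the test, held a pair, of which the nearer lay 135 bases before the start (chr11:102317339-102317368, plus strand). TNIP1 had its match 42 bases before a start (chr5:151081057-151081086, minus strand).
TNFAIP3: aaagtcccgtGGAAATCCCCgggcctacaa
ICAM1: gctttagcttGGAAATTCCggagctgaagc
NFKB1: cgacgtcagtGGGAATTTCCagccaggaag
NFKB2: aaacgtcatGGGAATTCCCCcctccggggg
BIRC3: tattaccgctGGAGTTCCCCtaagtcctaa
TNIP1: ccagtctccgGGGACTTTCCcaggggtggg
In the GENCODE 29 annotation the NFKBIA, NFKB1 and BIRC3 matches lie outside the annotated gene. Those printed for TNFAIP3, ICAM1, NFKB2 and TNIP1 fall in a non-coding part of an exon of some transcript of the same gene, so that part of each window lies inside the annotated gene.

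With exosomes, 9 of the 10 genes rose and 0 fell in edgeR's test, against 25.6% and 26.1% of all tested genes, and BIRC3 did not pass. Their median log2 fold change was 0.61, against -0.0042 over all tested genes. RELB (2.43-fold), TNFAIP3 (2.31-fold) and ICAM1 (2.20-fold) passed 2-fold in the uncorrected fit, as did 2.92% of tested genes in this direction. In all 9 genes that rose, every exosome library lay above every control library, against 35% of tested genes. Corrected, 5 of the 10 remained higher (RELB, NFKBIA, TNFAIP3, TNFAIP2 and ICAM1), against 18.2% of tested genes, and the median was 0.31. These 5 genes were called higher under every alternative run, while RELA, NFKB2, NFKB1 and TNIP1 lost their call with the correction. Of the 10 genes, 9 have a GC content above the median of tested genes (48.4%), and BIRC3, at 34.8%, is the exception. CPM is a share of the RNA of a whole culture, so that more cells expressing a gene and more of its RNA per cell cannot be told apart.

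**Figure D1:**
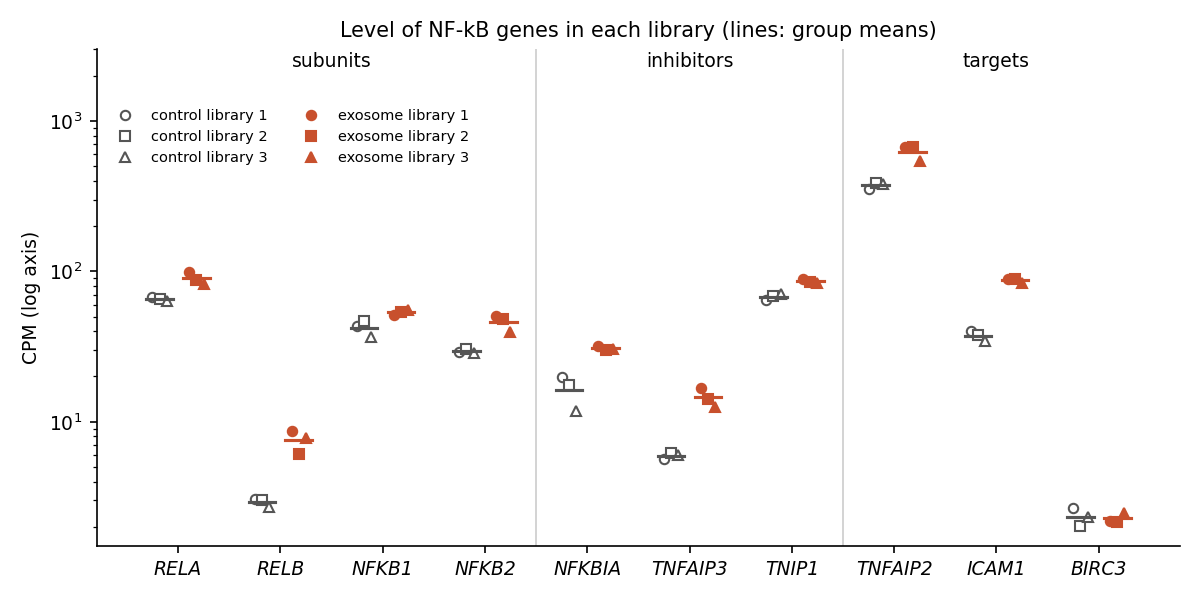
Level of the 10 genes in each library, in CPM on a log axis, with control libraries as open and exosome libraries as filled symbols, and horizontal lines at the group means. The groups are apart in 9 genes and overlap in BIRC3 (2.03 to 2.67 CPM in control, 2.15 to 2.47 CPM with exosomes).

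RELA, which encodes the main activating subunit p65, lies on chromosome 11 from 65653596 to 65663094 (minus strand, GRCh38). It had 67.5, 65.4 and 63.1 CPM in control libraries 1 to 3 and 99.4, 88.2 and 81.8 CPM in exosome libraries 1 to 3. The groups did not overlap, and the exosome libraries were spread more widely than the controls. This amounted to a log2 fold change of 0.38 ± 0.087 (SE; edgeR quasi-likelihood test, Benjamini-Hochberg adjusted p = 0.00107), and the correction ended the call (0.081 ± 0.066, adjusted p = 0.363). A noncoding gene overlaps RELA on the opposite strand, and no source used here says whether reads were counted by strand, so that reads of both cannot be told apart; the same holds for TNFAIP3 and ICAM1.

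RELB, the activating subunit of the non-canonical branch, lies on chromosome 19 from 45001430 to 45038198 (plus strand). Its levels were low, at 3.07, 3.00 and 2.71 CPM in control and 8.66, 6.14 and 7.80 CPM with exosomes, or 34 to 39 reads and 80 to 114 reads per library. Even the lowest exosome library, the second, had more than any control library. Uncorrected, its estimated rise was the largest of the 10 (log2 fold change 1.28 ± 0.21, adjusted p = 4.03e-05, rank 150 of 12449 from the highest) and kept its call after correction (0.74 ± 0.21, adjusted p = 0.00787), where TNFAIP3 and ICAM1 had larger values (1.22 and 0.86). RELB has the highest GC content of the 10, at 65.4%.

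NFKB1, whose p105 product is processed to the DNA-binding subunit p50, lies on chromosome 4 from 102501329 to 102617302 (plus strand). Control libraries had 43.5, 46.7 and 36.4 CPM and exosome libraries 51.3, 53.8 and 55.6 CPM. The third control library was the lowest, and the gap between the groups was narrow. Its rise of 0.26 ± 0.10 on the log2 scale passed the test (adjusted p = 0.0334), but not after correction (0.21 ± 0.093, adjusted p = 0.0798). Dropping control library 3, exosome library 2 or exosome library 3 ended the call too, with values of 0.17, 0.27 and 0.22 (adjusted p = 0.134, 0.0781 and 0.0951).

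NFKB2, the source of p100 and p52 and the partner of RELB, lies on chromosome 10 from 102394110 to 102402529 (plus strand). Levels were 29.3, 30.7 and 28.6 CPM in control and 50.3, 48.5 and 39.8 CPM with exosomes. The controls were close together, and exosome library 3 was the lowest of its group. NFKB2 rose by 0.56 ± 0.10 on the log2 scale (adjusted p = 0.000118) and had a corrected value of 0.18 ± 0.083 that did not pass (adjusted p = 0.100). At 62.4% its GC content falls in the highest bin of tested genes, whose median log2 fold change was 0.49.

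NFKBIA encodes IkB-alpha, which binds NF-kB dimers and keeps them out of the nucleus, and its transcription is a standard readout of the pathway. It lies on chromosome 14 from 35401511 to 35404749 (minus strand). Control libraries had 19.9, 17.5 and 11.8 CPM, the widest relative spread of the 10 genes in control (coefficient of variation 25.5%), and exosome libraries 31.9, 30.1 and 30.3 CPM. Control library 3 was far below the other controls, while the exosome libraries were nearly equal. NFKBIA had a log2 fold change of 0.83 ± 0.15 (adjusted p = 0.000128), 0.56 ± 0.13 after correction (adjusted p = 0.00195), and 0.64 without control library 3 (adjusted p = 5.42e-05).

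TNFAIP3 encodes A20, a ubiquitin-editing enzyme that shuts down signalling from the TNF receptor. It lies on chromosome 6 from 137867188 to 137883312 (plus strand), with an antisense gene across its exons. The values were 5.66, 6.17 and 6.04 CPM in control and 16.9, 14.3 and 12.6 CPM with exosomes. Treated libraries were far above the controls and differed more among themselves than the controls did. Its log2 fold change was 1.21 ± 0.16 (adjusted p = 3.53e-06) and was nearly the same after correction, at 1.22 ± 0.15 (adjusted p = 2.34e-06). Among the 1244 tested genes of the same GC bin, whose median log2 fold change was 0.036, 99.0% had a lower value.

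TNIP1 encodes ABIN1, an adaptor that binds A20 and restrains the pathway with it. It lies on chromosome 5 from 151029945 to 151093577 (minus strand). Control levels were 64.8, 68.2 and 70.8 CPM and treated levels 88.5, 84.6 and 83.9 CPM. All treated libraries were above the controls by a small margin. The log2 fold change of 0.25 ± 0.081 (adjusted p = 0.0119) turned to -0.10 ± 0.073 after correction (adjusted p = 0.309). Leaving out control library 1 also ended the call (adjusted p = 0.0507). Of the tested genes in its GC bin, 39.6% had a lower fold change than TNIP1.

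TNFAIP2, a TNF-induced gene linked to membrane protrusions, lies on chromosome 14 from 103123442 to 103137439 (plus strand) and was by far the most abundant of the 10. It had 355, 387 and 384 CPM in control and 667, 668 and 540 CPM with exosomes. Exosome library 3 stood below the other treated libraries and still well above the controls. TNFAIP2 rose by 0.65 ± 0.082 on the log2 scale (adjusted p = 2.11e-06) and by 0.34 ± 0.063 after correction (adjusted p = 0.000318).

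ICAM1, the adhesion molecule that binds leukocyte integrins, lies on chromosome 19 from 10270835 to 10286615 (plus strand), and 2 antisense genes overlap its exons. Levels were 40.1, 37.8 and 34.3 CPM in control and 88.9, 88.8 and 84.0 CPM with exosomes. The libraries of each group lay close together, and the gap between the groups was wide. ICAM1 had the smallest adjusted p of the 10 (log2 fold change 1.14 ± 0.090, adjusted p = 3.17e-09), and 0.86 ± 0.075 after correction (adjusted p = 2.39e-08).

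BIRC3 encodes cIAP2, a ubiquitin ligase of the TNF receptor complex that also protects from apoptosis, and is widely used as an NF-kB target. It lies on chromosome 11 from 102317450 to 102339403 (plus strand). Its levels were 2.67, 2.03 and 2.32 CPM in control and 2.20, 2.15 and 2.47 CPM with exosomes, from 23 to 34 reads per library. The groups overlapped. The log2 fold change of -0.13 ± 0.28 did not pass (adjusted p = 0.731), and its 95% confidence interval of -0.71 to 0.45 leaves room for changes in both directions at this depth. Corrected, it was 0.28 ± 0.27 (adjusted p = 0.452).

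**Figure D2:**
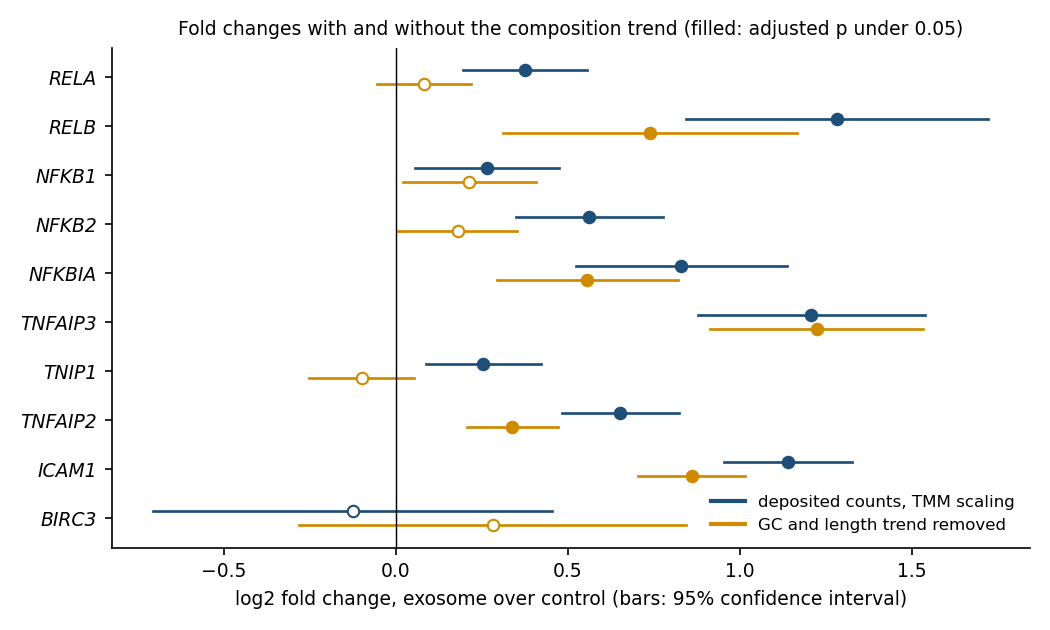
Log2 fold change of each gene, exosome over control, with its 95% confidence interval, from the deposited counts (blue) and with each library's trend on GC content and transcript length removed (ochre); filled points have an adjusted p under 0.05. TNFAIP3 stays at 1.21 and 1.22, RELB goes from 1.28 to 0.74, and RELA, NFKB1, NFKB2 and TNIP1 lose their call when the trend is removed.

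Per unit of transcript length, in the authors' FPKM (fragments scaled to transcript length and library depth), the 10 genes covered a wide range of levels. In control, TNFAIP2 (80.2 ± 3.75 FPKM, mean ± SD, n = 3 here and below) was followed by TNIP1 (22.05 ± 0.981), RELA (19.3 ± 0.647) and ICAM1 (11.5 ± 0.900). NFKBIA (8.61 ± 2.19), NFKB2 (8.02 ± 0.282) and NFKB1 (7.64 ± 0.960) came next, and the libraries of neighbours in this trio overlapped. RELB (1.27 ± 0.0824) and TNFAIP3 (1.26 ± 0.0558) overlapped as well, and BIRC3 was lowest (0.339 ± 0.0468). With exosomes, ICAM1 (26.8 ± 0.866) took the third place from RELA (26.5 ± 2.63), but the libraries of TNIP1 (27.8 ± 0.811), ICAM1 and RELA overlapped from one neighbour to the next. NFKBIA (16.2 ± 0.511), NFKB2 (12.5 ± 1.52) and NFKB1 (9.71 ± 0.392) were then apart from each other. RELB (3.27 ± 0.557) and TNFAIP3 (3.08 ± 0.453) again overlapped, and BIRC3 stayed last at 0.329 ± 0.0254 FPKM.

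Ratios of read counts within a library do not depend on how libraries are scaled, and 6 of them were computed to compare genes of related role. How often ratios of other gene pairs keep the groups apart was not computed. Of single tested genes, 35% had every exosome library above every control library and 24.5% below. The RELB to RELA ratio was 0.0454, 0.0458 and 0.0429 in control and 0.0871, 0.0696 and 0.0953 with exosomes, a 1.86-fold rise with no overlap. Between the inhibitors, the TNFAIP3 to TNIP1 ratio went from 0.0874, 0.0904 and 0.0852 to 0.190, 0.169 and 0.150, a 1.93-fold rise. NFKBIA rose relative to RELA (0.249 ± 0.0562 to 0.344 ± 0.0248) and ICAM1 relative to TNFAIP2 (0.0999 ± 0.0120 to 0.141 ± 0.0130) with the groups apart. The NFKB2 to NFKB1 ratio (0.706 ± 0.0711 and 0.865 ± 0.135) and the NFKB1 to RELA ratio (0.645 ± 0.0692 and 0.602 ± 0.0821) overlapped between groups. In a two-sided exact permutation test the first 4 had p = 0.1, the smallest that 3 against 3 libraries allow (0.15 adjusted over the 6 ratios), and the last pair had p = 0.2 and p = 0.6 (0.24 and 0.6 adjusted). TNFAIP3 has a lower GC content (49.5%) than TNIP1 (59.2%), whereas RELB lies above RELA (57.1%).

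**Figure D3:**
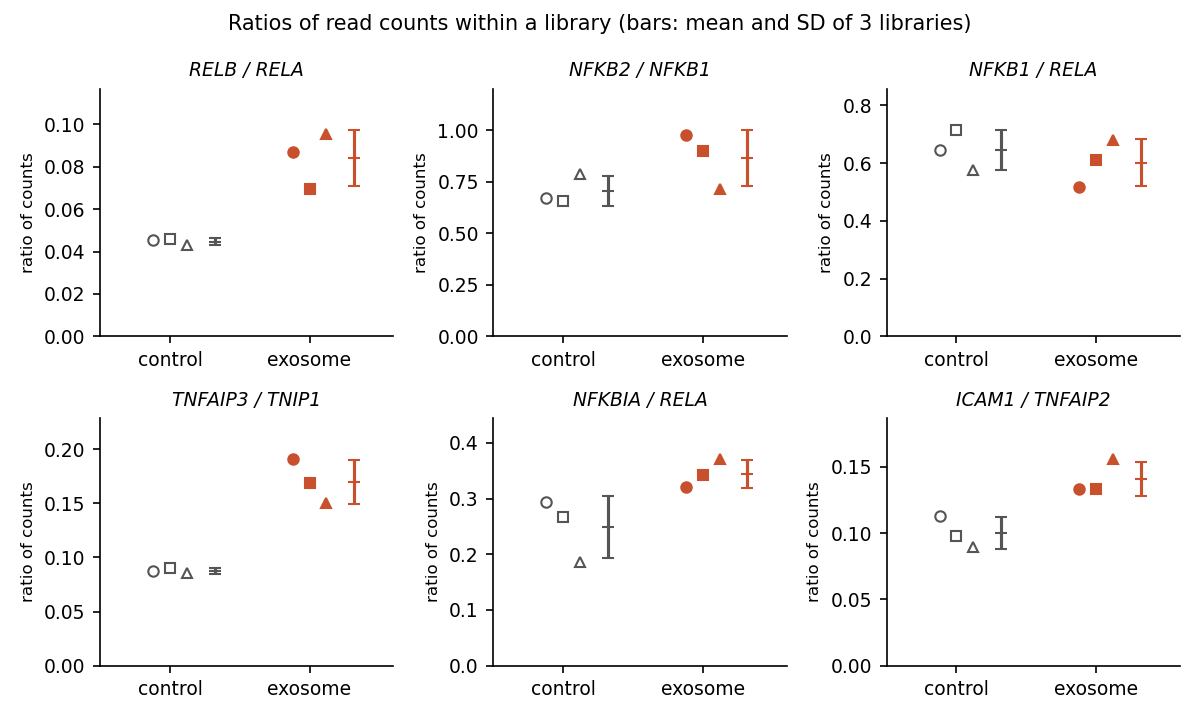
Ratio of read counts of gene pairs within each library, for control (open) and exosome (filled) libraries, with the mean and SD of each group at the right of its points. RELB over RELA and TNFAIP3 over TNIP1 rise 1.86-fold and 1.93-fold with the groups apart, and NFKB2 over NFKB1 and NFKB1 over RELA overlap.

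The rest of the pathway was described from lists by role. Among ligands and receptors of the TNF families, 5 of 13 tested genes rose and 2 fell (38.5% and 15.4%, against 25.6% and 26.1% of all genes; median log2 fold change 0.29). TNFRSF1A, the main TNF receptor, averaged 171 ± 4.14 CPM in control libraries and 247 ± 12.4 CPM in treated ones, a rise of 0.45 on the log2 scale (adjusted p = 3.46e-05), and LTBR, the lymphotoxin-beta receptor that feeds the non-canonical branch, from 49.8 ± 1.45 to 70.8 ± 3.93 CPM (0.42, adjusted p = 0.000332). Neither passed after correction (0.076 and 0.12, adjusted p = 0.346 and 0.189). The ligand TNFSF12, or TWEAK, rose by 0.80 (corrected 0.32, adjusted p = 0.281). TNFSF14, or LIGHT, rose by 0.96 from 1.26 ± 0.184 to 2.63 ± 0.557 CPM and was the list's 1 corrected rise (0.91, adjusted p = 0.0255), although leaving out control library 2 or exosome library 1 ended its call (0.0520 and 0.0973 as adjusted p). In either case 3 ligands or receptors were higher. TNFRSF21, death receptor 6, fell (log2 fold change -0.21, corrected -0.32), but missed the threshold when scaled by totals alone (adjusted p = 0.136) and when control library 1 or exosome library 2 was dropped (adjusted p = 0.120 and 0.115). TNFRSF11A, the receptor RANK, fell by 0.40 on the log2 scale (adjusted p = 0.0211), and did not pass after correction (-0.24, adjusted p = 0.142). It also missed when scaled by totals alone (adjusted p = 0.0711) and when control library 3, exosome library 2 or exosome library 3 was dropped (adjusted p = 0.0539 to 0.218). Without exosome library 2, 0 of this list were lower, and with control library 1, control library 3 or exosome library 3 dropped, 1 was. The genes of TNF itself and of 5 other ligands of this list were not analysed here.

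Among adaptors, ubiquitin ligases and kinases between receptor and NF-kB, 9 of 27 tested genes rose and 12 fell (33.3% and 44.4%, median log2 fold change -0.18). Of all tested genes, 25.6% rose and 26.1% fell. Corrected, 1 of the list was higher and 7 lower, against 18.2% and 17.3% of all tested genes. TRAF2, an adaptor of the TNF receptor complex, was the 1 that remained higher: it rose from 13.9 ± 0.674 to 24.9 ± 2.47 CPM (0.76, corrected 0.31, adjusted p = 0.0256). SHARPIN, a subunit of the linear ubiquitin ligase, rose by 0.72 (corrected 0.091, adjusted p = 0.534), and TAB1 and the kinase IRAK1 rose by 0.34 and 0.26 but had corrected values below 0 (-0.013 and -0.12, adjusted p = 0.922 and 0.134). Falls were seen in MALT1 and BCL10, partners in the complex that links antigen receptors and protein kinase C to the IkB kinase. MALT1 went from 97.7 ± 5.27 to 59.7 ± 3.16 CPM (-0.79, corrected -0.37, adjusted p = 0.000222) and BCL10 from 35.6 to 23.2 CPM (-0.70, corrected -0.50, adjusted p = 0.000239). The TAK1-binding proteins TAB2 (-0.51, corrected -0.21, adjusted p = 0.0145) and TAB3 (-0.50, corrected -0.089, adjusted p = 0.226) fell as well. RBCK1, another subunit of the linear ubiquitin ligase, was called in opposite directions by the uncorrected and the corrected fit (0.27, adjusted p = 0.00846; corrected -0.22, adjusted p = 0.00544).

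Of 16 tested genes among the remaining subunits and inhibitors, 6 rose and 7 fell (37.5% and 43.8%, median -0.18), or 2 and 4 after correction. The shares over all tested genes were 25.6% and 26.1%, or 18.2% and 17.3% after correction. BCL3, a nuclear IkB protein that acts with p50 and p52, had 83.2, 86.8 and 65.7 CPM in control and 250, 236 and 192 CPM with exosomes. The change exceeded the log2 value of 1.28 of RELB, a difference that was not tested (1.44 ± 0.11, adjusted p = 7.61e-08; corrected 0.83, adjusted p = 1.14e-09). NFKBIZ, which encodes the inducible nuclear IkB protein IkB-zeta, rose by 0.40 (corrected 0.46, adjusted p = 0.00146). NFKBIE, which encodes IkB-epsilon, and TNIP2, which encodes the A20-binding protein ABIN2, rose by 0.87 and 0.52 and did not pass after correction (0.46 and 0.044, adjusted p = 0.144 and 0.762). Among inhibitors that act on ubiquitin, TAX1BP1, an A20 partner, fell from 473 ± 28.3 to 320 ± 29.1 CPM (-0.65, corrected -0.64, adjusted p = 1.26e-06), RNF11 by 0.51 on the log2 scale (corrected -0.34, adjusted p = 0.00249) and the deubiquitinase CYLD from 79.3 ± 6.46 to 55.3 ± 3.75 CPM (-0.60, corrected -0.20, adjusted p = 0.0293). The ligase ITCH fell by 0.47 on the log2 scale, but not after correction (-0.10, adjusted p = 0.176). REL, the remaining activating subunit, fell from 44.5 ± 3.97 to 32.8 ± 7.20 CPM (-0.52, adjusted p = 0.00380), opposite to RELA and RELB, and its corrected value was close to 0 (-0.027, adjusted p = 0.860).

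Of 27 tested genes among other TNF and NF-kB targets, 11 rose and 3 fell (40.7% and 11.1%, median 0.22), or 9 and 5 after correction (median 0.20). Over all tested genes the shares were 25.6% and 26.1%, or 18.2% and 17.3% after correction. The complement component C3 rose from 977 ± 26.1 to 2230 ± 48.4 CPM (1.11 ± 0.074, corrected 0.96, adjusted p = 2.47e-10). The transcription factor IRF1 (0.90, corrected 0.85), the stress gene GADD45B (0.83, corrected 0.40) and the ephrin EFNA1 (0.77, corrected 0.36) also rose. PTGS2, which encodes cyclooxygenase-2, fell from 8.09 ± 0.972 to 3.77 ± 0.116 CPM (-1.19, corrected -0.83, adjusted p = 0.00113). KLF6 (-0.40, corrected -0.29) and the apoptosis inhibitor XIAP (-0.50, corrected -0.077, adjusted p = 0.354) were the other falls. At the low end, BCL2A1, IER3 and CSF2 had 0 reads in every control library and were not tested.

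**Figure D4:**
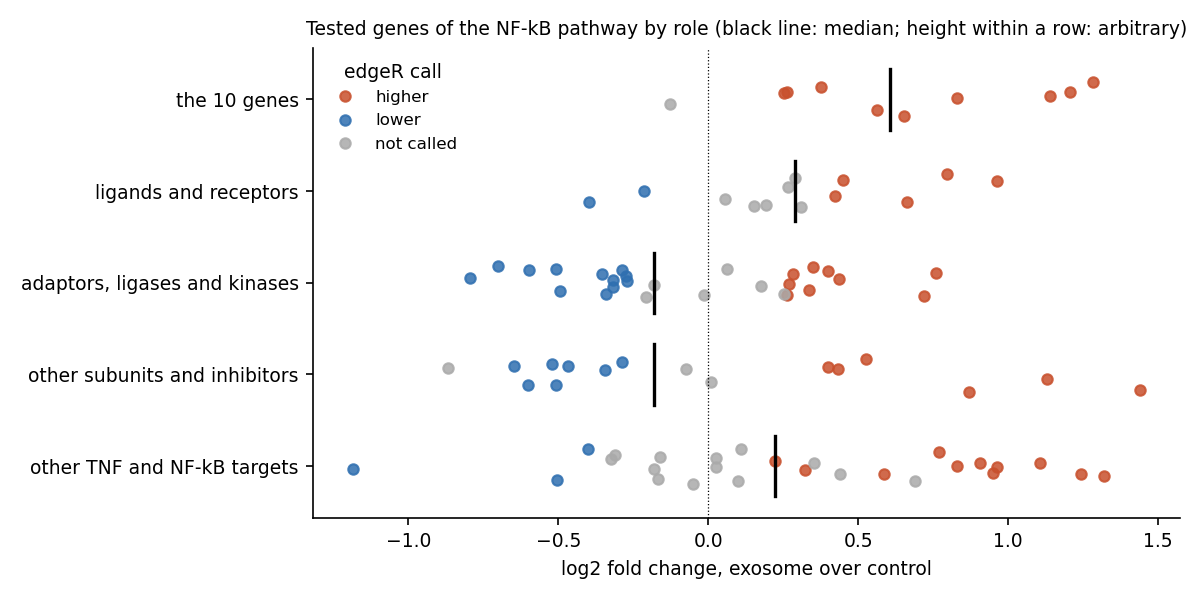
Log2 fold change, exosome over control, of every tested gene of the pathway by role, coloured by its call in edgeR's test, with the list median as a black line. The 10 genes lie to the right of 0 except BIRC3, while adaptors, ligases and kinases divide into 9 higher and 12 lower.

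The 5 tested genes outside the group whose levels followed the mean profile of the 10 most closely over the 6 libraries were MYBL2, FKBP8, SPSB1, ZNF76 and BTBD2. Their root mean square distance to that profile was 0.0254 to 0.0333 in log2 CPM. The distances of the 10 genes to their own mean ran from NFKB2 (0.0914) and TNFAIP2 (0.107) to RELB (0.321) and BIRC3 (0.400). The 5 genes were picked as the nearest of all tested genes, so their smaller distances follow from that choice.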

How the data were processed

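RNA of 6 cultures was sequenced. Per the file headers, the table holds the authors' read counts per gene, a normalised signal (the counts divided by 1 size factor per library, which was checked), FPKM values, log2 fold changes and p-values. Per the submitters' processing notes, STAR and GRCh38 (hg38) were used. The sources used here do not name the counting program, its strand setting or the tool behind the authors' p-values. The deposited counts served for all tests, and FPKM only to order levels. Deposited positions start 1 base below GENCODE 29 and are printed from the latter.

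The main test was edgeR's robust quasi-likelihood test (version 4.0.16, R 4.3.3) after filterByExpr and TMM scaling, with group as the only term. Benjamini-Hochberg adjustment ran over 12449 genes, with 0.05 as threshold. Standard errors were taken as log2 fold change divided by the root of F. The correction used loess trends (span 0.3) of log2 CPM on GC content and log2 length of the longest GENCODE 29 transcript as offsets. Pairs of libraries within a group had a chi-square of 2.29 to 15.6 per gene, so none agreed within sampling noise. Libraries 1 and 2 were closest in both groups (2.29 in control, 3.11 with exosomes). Pairs with library 3 had 15.6 and 11.7 in control and 9.34 and 7.15 with exosomes. Alternatives were RLE factors, library totals, no filter, 1 CPM in 3 libraries, DESeq2 1.42.0, limma-voom (limma 3.58.1), a threshold of 0.01, a replicate block, the correction with and without it, and leaving out each library. The procedure was also run on simulated counts with few changed genes and no trend on GC content or length. Unlike these data, they could not check the correction against such a trend, or the scaling when many genes change.

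The genes, the gene pairs of the ratios and the lists were chosen with earlier results of these data known, and they support nothing independently. The naming rule took the 10 genes, up to 4 called genes per pathway list and direction with the smallest adjusted p, and the 5 genes nearest to the mean profile. REL, RBCK1, CXCL2, ZC3H12A, TNFRSF9, IL6, CXCL8, CCL2, BCL2A1, IER3, CSF2 and the markers named were outside that limit and were chosen after their values were seen.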

Additional observations from a re-analysis of the deposited data

How the results depend on the processing

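Of the 10 genes, 9 were higher under RLE factors, library totals, both filters, DESeq2, limma-voom and the replicate block, 7 at a threshold of 0.01 and 8 to 9 with 1 library left out. This count fell to 5 with the GC and length correction, alone or with the block. Of 12449 tested genes, 3190 were higher in the main test, 3811 with library totals and 2354 at a threshold of 0.01. With 1 library left out, 2503 to 3234 of 12570 to 12603 tested genes were higher. With the GC and length correction, 2263 of 12449 were higher, or 2397 with the block. That correction gave 2148 lower genes in all against 3244, 1 higher and 1 lower ligand or receptor against 5 and 2, 1 higher and 7 lower adaptors and kinases against 9 and 12 (the same with the block), 2 higher (3 with the block) and 4 lower other inhibitors against 6 and 7, and 5 lower targets (5 with the block) against 3. Ligands and receptors also went to 3 higher and 0 lower at a threshold of 0.01, to 0 lower with library totals, and to 3 to 5 higher and 0 to 2 lower when 1 library was left out. Among the genes chosen by the naming rule, corrected log2 fold changes turned below 0 in TNIP1 (-0.10, or -0.098 with the block), TAB1 (-0.013 and -0.010) and IRAK1 (-0.12 and -0.12), none of these 3 past the threshold, while RBCK1, outside that rule, turned from 0.27 to -0.22 and passed it (adjusted p = 0.00544). The cause was not tested. With library totals, 60.4% of all calls were higher against 49.6%, and the median log2 fold change of all genes was 0.078 against -0.0042. Numbers in the titles give no stated pairing: deviations of same-numbered libraries correlated at 0.0664, 0.103 and 0.206, each library best with its own number. For number 1 the margin was very small: control 2 with exosome 1 had 0.0659 and control 1 with exosome 2 had 0.0623. The remaining pairs of unlike number were at -0.141 to -0.109. With the replicate block alone, 3444 genes were higher and 3525 lower, 9 of the 10 genes rose, and 5 other targets were lower against 3. Depth limits RELB, TNFAIP3 and BIRC3 most.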

Other observations

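Among TNF and NF-kB targets that had no place above and were chosen after their values were seen, 3 genes of low level rose and kept their call after correction. The chemokine CXCL2 went from 1.91 ± 1.09 to 4.99 ± 1.19 CPM (log2 fold change 1.32, edgeR adjusted p = 0.00147; corrected 1.19, adjusted p = 0.00465). ZC3H12A, which encodes a ribonuclease that degrades inflammatory transcripts, went from 2.86 ± 0.342 to 7.19 ± 1.57 CPM (1.24, adjusted p = 8.16e-05; corrected 0.83). TNFRSF9, or 4-1BB, went from 1.70 ± 0.299 to 3.48 ± 0.804 CPM (0.95, adjusted p = 0.00868; corrected 1.18). The cytokine genes IL6, CXCL8 and CCL2, all at 1.13 to 3.56 CPM on average, did not pass (adjusted p = 0.848, 0.410 and 0.313).

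The authors' deposited table places the adjusted p-values of all 10 genes on the same side of 0.05 as the uncorrected test above. Its log2 fold changes for RELA (0.382) and NFKB1 (0.271) were the same as in the DESeq2 alternative run here. The match thus comes from testing the same counts again and is no separate evidence. NFKB1 was the called gene nearest to that threshold in the authors' deposited table (log2 fold change 0.27, adjusted p = 0.0439), and BIRC3 was not called there (-0.12, adjusted p = 0.826).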
